A study of Mus musculus with 88 samples.

Results

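The 7 genes described here are Pax1, Pax2, Pax3, Pax5, Pax7, Pax8 and Pax9, the paired box transcription factors other than Pax4 and Pax6. They were chosen by name, from 53697 genes in the mesoderm table, 54393 in the endoderm table, 26007 in the bulk embryoid body table and 15830 in the single-cell table. The single-cell table held 6 of the 7, without Pax1. The cells were mouse embryonic stem cells (ESCs) grown in serum with leukaemia inhibitory factor (LIF). For directed differentiation, E14 wild type (WT), Mtf2 null and Jarid2 null ESCs were taken undifferentiated and at 5, 24 and 48 h of a mesoderm or an endoderm series. The protocol gave Activin A, the Wnt activator CHIR99021 and FGF2, with BMP4 for mesoderm, up to 24 h, and lateral mesoderm or definitive endoderm factors after that. Each group had 2 libraries that were described as technical duplicates, so p-values from this series measure only the spread between them. The 2 Jarid2 null libraries at 48 h of endoderm carry a different time in their count headings, and the time of the sample labels was used. Embryoid bodies (EBs), aggregates that differentiate after LIF is removed, were profiled in bulk on days 0, 2, 4 and 7 in lines labelled Mtf2 null, with Pcl1-3 WT as its WT line, Jarid2 null, with JM8, and Eed null, with J1, with 1 sample per line and day. EBs labelled E14 were also profiled as single cells on days 0, 4, 7 and 10 in WT cells and in cells null for Mtf2, Jarid2 or Eed, with 1 library of sorted live cells, from pooled wells of EBs, per genotype and day. Each mutant is an established line, so a genotype and its clone cannot be told apart. The labels of the directed and single-cell series name E14 and none of these matched WT lines, so genotype and parental line cannot be told apart there either.

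Pax proteins bind DNA through a paired domain and mark where organs and body segments form. Pax1 and Pax9 act in the ventral somite and the pharyngeal pouches, and Pax2, Pax5 and Pax8 in the midbrain-hindbrain boundary, the inner ear, the kidney, the thyroid and, for Pax5, B cells. Pax3 and Pax7 act in the dorsal neural tube, the neural crest and the muscle-forming part of the somite. In ESCs such developmental genes are commonly held silent by Polycomb repressive complex 2 (PRC2), which places the H3K27me3 mark. EED is a core subunit that PRC2 needs, MTF2 brings the complex to unmethylated CG-rich DNA in its PRC2.1 form, and JARID2 belongs to the PRC2.2 form.

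Promoter windows of 300 bases, from 250 before to 50 after a gene start, were found in RefSeq (GRCm38.p6) for 6 of the 7 genes, 8 windows in all. Pax3 was not matched. Because MTF2 recognises CG, the CG dinucleotides were counted. They numbered from 7 to 30 in the 8 windows, against a median of 7 over 32851 promoters of the same length, of which 94.6% held at least 1. The windows of a pair of genes are shown, those of Pax2 and Pax8, the genes whose levels separated undifferentiated Mtf2 null cells from WT below. CG is in capitals, and CG reads the same on both strands. The Pax2 window is the last of 3 for that gene, at chr19:44756656-44756955 on the plus strand, and holds 30 CG, a number reached by 11.7% of promoters. The other Pax2 windows held 7 and 23. The Pax8 window lies at chr2:24475550-24475849 on the minus strand and holds 7 CG, a number reached by 52.1% of promoters.
Pax2: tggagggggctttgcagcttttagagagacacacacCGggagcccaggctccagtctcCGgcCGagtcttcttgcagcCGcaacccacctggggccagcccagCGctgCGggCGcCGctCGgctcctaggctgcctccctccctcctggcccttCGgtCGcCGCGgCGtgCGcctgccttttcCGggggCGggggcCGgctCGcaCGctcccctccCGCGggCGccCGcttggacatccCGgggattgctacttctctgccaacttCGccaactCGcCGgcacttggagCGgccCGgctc
Pax8: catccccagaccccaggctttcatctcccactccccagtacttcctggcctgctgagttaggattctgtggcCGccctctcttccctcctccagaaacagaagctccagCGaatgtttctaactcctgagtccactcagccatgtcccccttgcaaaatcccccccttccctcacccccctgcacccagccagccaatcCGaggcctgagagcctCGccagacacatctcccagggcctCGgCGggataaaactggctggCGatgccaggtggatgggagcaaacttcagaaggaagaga
These counts describe letters and say nothing of binding in these cells.

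The genes lie on 5 chromosomes (GRCm38, GENCODE vM21). Pax1 spans chr2:147361925-147393295 and Pax8 chr2:24420560-24475599, Pax2 spans chr19:44756045-44837871, Pax3 chr1:78101267-78197134, Pax5 chr4:44524757-44710487, Pax7 chr4:139737062-139833528 and Pax9 chr12:56691767-56712822. All 7 are annotated as protein coding. Exons of a gene on the opposite strand overlap exons of Pax1 (AI646519, 183 bases), Pax5 (Gm12462, 125 bases, and 5730488B01Rik, 636 bases), Pax8 (Gm13415, 367 bases) and Pax9 (Slc25a21, 189 bases). The use of strand in counting was not given in the sources used here, so reads from these overlaps cannot be told apart.

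The directed libraries held 9112116 to 16898498 counts and the Pax genes gave at most 29 counts in any of them. In both series Pax1, Pax3, Pax5 and Pax8 passed the filter on low counts and 3 of the 7 genes did not. Mtf2 RNA was 30.2 to 38.2 CPM (counts scaled by library size) in Mtf2 null libraries and 206 to 509 CPM in WT. Jarid2 RNA in libraries labelled Jarid2 null, at 189 to 622 CPM, overlapped WT at 307 to 661 CPM, so the gene-level counts did not separate this label. The exons removed were not given in the sources used here, and these libraries are called by their label throughout.

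In undifferentiated cells Pax8 was the most abundant of the 7 per length, at 0.311 CPM per kb of exon in WT, followed by Pax2 at 0.127 and Pax3 at 0.0777. Pax7 was lowest at 0.00819 CPM per kb, with 0 or 1 counts per WT library. Pax8, a kidney and thyroid regulator, was at 2.21, 1.48, 2.16 and 1.70 CPM in the 4 WT libraries of both series. In the 4 Mtf2 null libraries it was at 0.942, 0.724, 0.493 and 0.838 CPM, all below every WT library. The log2 fold change was -1.33 (SE 0.32), with an adjusted p of 0.00255 by edgeR over 16655 genes, which missed the threshold of 0.001 set for these series. Pax2, which acts with Pax8 in the early kidney, gave 6, 8, 7 and 9 counts in WT and 0, 1, 1 and 0 in Mtf2 null libraries. That is 0.688 ± 0.118 CPM in WT and 0.046 ± 0.054 CPM in Mtf2 null cells (SD, n = 4 each), and the groups did not overlap. Pax2 was under the filter, so it had no place in that fit. In an exact two-sided permutation test of the CPM, Pax2 and Pax8 each gave p = 0.0286, the smallest that 4 against 4 libraries allow, and an adjusted p of 0.2 over 14 tests. That test exchanged labels freely across both series and took the technical duplicates within each series as independent, so its p-values are too low if they are not. Of 35237 genes with a count, 12.5% had all 4 Mtf2 null libraries below all 4 WT libraries, and of the 7 Pax genes only Pax2 and Pax8 did. Of the genes in the fit, 14.7% were called in Mtf2 null cells and none of them was a Pax gene described here. With no filter on low counts, where 8.62% of 35237 genes were called, both were called, Pax2 at -3.69 (adjusted p = 3.7e-05) and Pax8 at -1.37 (adjusted p = 0.000827).

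In libraries labelled Jarid2 null, undifferentiated Pax8 was at 0.884, 1.73, 0.915 and 1.21 CPM, which overlapped WT. Its log2 fold change was -0.68 (SE 0.29, adjusted p = 0.117), and 1.15% of genes were called in that comparison. Pax2 was at 0.449 ± 0.15 CPM (exact permutation p = 0.0857, two-sided). Between Mtf2 null and the label Jarid2 null, Pax8 differed by -0.64 (SE 0.33, adjusted p = 0.117), where 14% of genes were called. Pax2 was not in that fit, and its values in Mtf2 null and labelled Jarid2 null libraries were not tested against each other. For the other 5 genes no difference from WT was shown in either mutant. Pax1 was at 0.052 ± 0.103 CPM in Mtf2 null and 0.139 ± 0.117 in WT cells, Pax3 at 0.322 ± 0.206 and 0.481 ± 0.167, and Pax5 at 0.527 ± 0.137 and 0.441 ± 0.155 (SD, n = 4). Exact permutation p-values of these 5 genes ranged from 0.286 to 1.

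**Figure D1:**
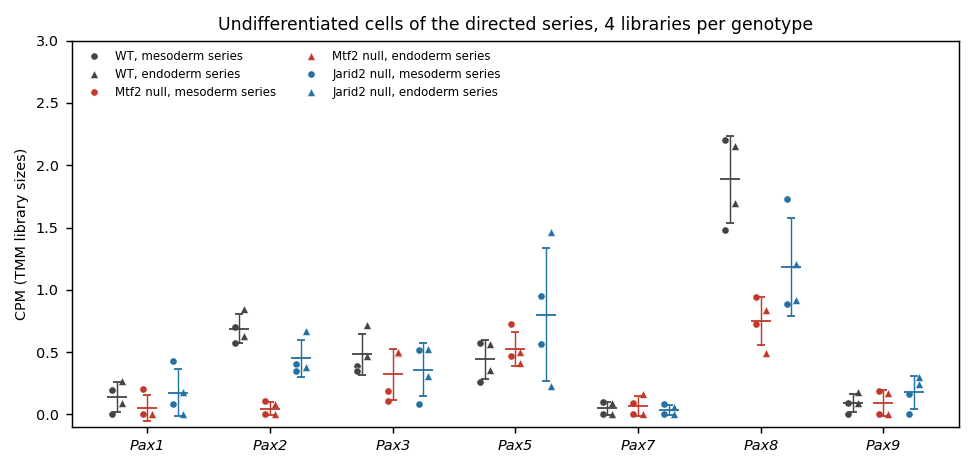
CPM (TMM library sizes of both series) of the 7 Pax genes in undifferentiated cells, 4 libraries per genotype. Points are libraries, circles from the mesoderm and triangles from the endoderm series, and the bar and whiskers are the mean and SD. Pax8 and Pax2 in Mtf2 null cells lie wholly below WT.

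The summed levels of several marker lists of other cell types moved with the Mtf2 null label in the same libraries. The 6 extraembryonic endoderm genes summed to 207 to 261 CPM in Mtf2 null and 13.9 to 20.2 CPM in WT libraries, with Afp at 0 in both and Ttr at 0 in WT only. The 4 definitive endoderm genes summed to 9.29 to 15.3 against 1.23 to 2.11 CPM, the 4 lateral mesoderm genes to 38.9 to 47 against 9.08 to 10.3 CPM, the 5 trophoblast genes to 56.9 to 57.6 against 20.9 to 27.9 CPM and the 5 germ cell genes to 119 to 141 against 57.3 to 76.8 CPM, with none of these genes at 0 in either group. By gene, 3 of 3 tested extraembryonic endoderm, 2 of 2 lateral mesoderm and 2 of 3 definitive endoderm genes were called higher. Of 3 tested trophoblast genes 1 was called, Tfap2c, with a median log2 fold change of 0.16. Of 5 tested germ cell genes 1 was called higher and 1 lower, with a median of -0.30, so that sum does not stand for the whole list. The 7 fibroblast genes were lower, at 4.93 to 5.78 against 8.09 to 12 CPM, with Col3a1, Lum and Postn at 0 in both. The 6 pluripotency genes, at 3260 to 3540 against 3130 to 3340 CPM, overlapped, as did the 4 primitive streak genes (2.28 to 4.52 against 3.67 to 5.08 CPM) and the 4 blood genes (1.13 to 2.38 against 0.539 to 1.4 CPM, with Hbb-bh1 and Hbb-y at 0 in both). The part of these lists in the Pax2 and Pax8 values was not tested, and in bulk samples fewer cells of a type and less RNA per cell cannot be told apart.

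Pax8 was the 1 tested Pax gene called over directed differentiation, in the mesoderm series. In WT cells of the mesoderm series it was at 2.27 and 1.45 CPM undifferentiated, 0.994 and 1.25 at 5 h, 0.09 and 0.219 at 24 h and 0.131 and 0.245 at 48 h. It fell by 3.26 on the log2 scale (SE 0.55) from undifferentiated to 48 h, with an adjusted p of 0.000106 by edgeR, and was the 1 of 4 tested Pax genes called; 8.64% of all genes were. Only 23 and 17 counts stood against 2 and 3. The call was lost when only the 4 libraries compared were fitted (-3.31, adjusted p = 0.00252), and also without WT undifferentiated replicate 1 (-2.90, 0.00185), WT 48 h replicate 1 (-2.86, 0.00443) or WT 48 h replicate 2 (-3.71, 0.00122). In the endoderm series the WT libraries at 48 h were at 1.65 and 0.47 CPM, far apart, and the fall from 1.98 ± 0.415 to 1.06 ± 0.831 CPM was not called (-0.88, SE 0.52, adjusted p = 0.199); 8.15% of genes were. Whether the WT change differed between the 2 series was not tested. Pax2, under the filter and so not tested, was at 0.636 ± 0.0638 CPM in undifferentiated WT cells and 0.147 ± 0.0229 at 48 h of the mesoderm series, and at 0.753 ± 0.128 and 0.0433 ± 0.0613 CPM in the endoderm series (SD, n = 2 each). These Pax2 values rest on 6 to 9 counts undifferentiated against 0 to 2 at 48 h. For Pax8, Mtf2 null cells started lower and were at 0.273 and 0.238 CPM at 48 h of the mesoderm series, beside WT at 0.131 and 0.245.

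Pax5, which sets B cell identity and helps pattern the midbrain, went from 6 and 3 counts in undifferentiated WT cells to 0 and 1 at 48 h of the mesoderm series (log2 fold change -3.17, SE 1.08, adjusted p = 0.028, not called). Mtf2 null libraries held 2 and 6 Pax5 counts at that time and libraries labelled Jarid2 null 0 and 0. Pax1, which acts in the sclerotome, was at 1.13 and 1.03 CPM at 24 h in the mesoderm series of the label Jarid2 null, with 0.271 and 0.346 CPM in WT. That difference was 1.72 on the log2 scale (SE 0.70, adjusted p = 0.0831) and was not called. At 48 h of the endoderm series Pax1 was at 0.673 and 1.33 CPM in Mtf2 null, 0.347 and 1.06 in labelled Jarid2 null and 0.173 and 0.848 in WT libraries, which overlapped (Mtf2 null against WT 0.99, SE 0.80, adjusted p = 0.361). Pax3 stayed between 0.085 and 0.965 CPM in all 48 libraries. Pax7 never exceeded 3 counts.

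Across both series, 64 tests of a genotype against WT at one time were made for the 4 genes that passed, and 0 were called. The lowest adjusted p was 0.0299, and 5 of the 64 (7.81%) had an unadjusted p under 0.05, beside 7.61 to 48.1% of all genes in the same comparisons. Of all genes, 11.1, 7.56, 5.72 and 6.82% were called in Mtf2 null cells of the mesoderm series when undifferentiated and at 5, 24 and 48 h, and 11, 7.61, 6.58 and 10.5% in the endoderm series. With the label Jarid2 null these shares were 0.37, 0, 1.97 and 0.169% in the mesoderm and 0.742, 0.0363, 0.0312 and 0.125% in the endoderm series. Of 16 tests of a change in the genotype effect from undifferentiated to 48 h, 0 were called, 1 had an unadjusted p under 0.05, and the lowest adjusted p was 0.119. Of all genes, 2.71% (mesoderm) and 5.24% (endoderm) were called for Mtf2 null, and with the label Jarid2 null 0.0545% and 0.514%. DESeq2 called 0 as well where it gave an adjusted p.

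**Figure D2:**
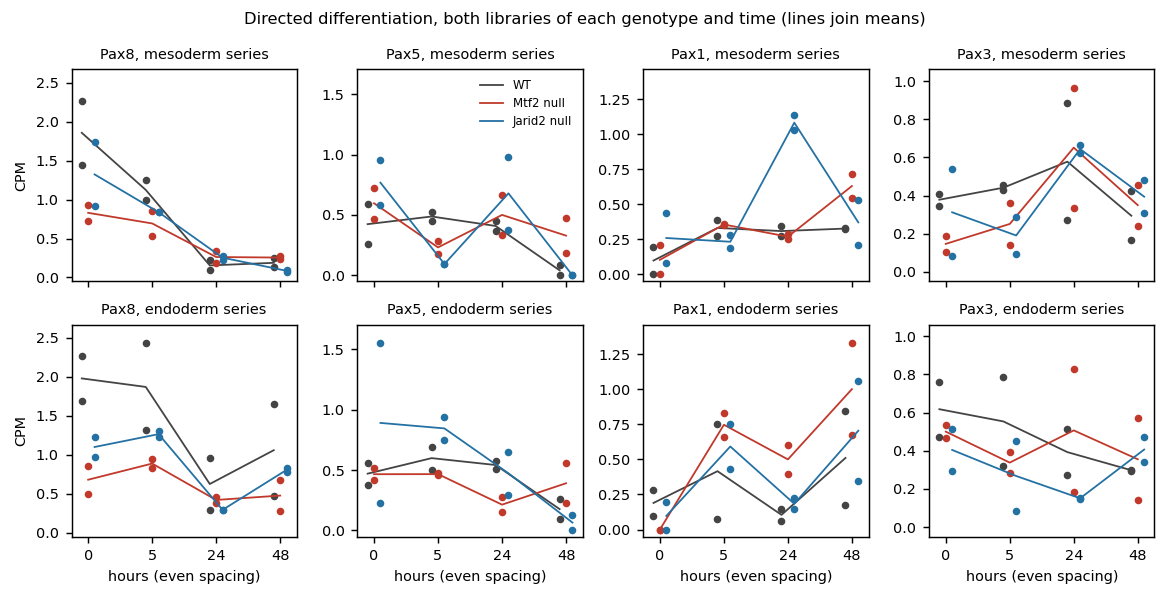
CPM of Pax8, Pax5, Pax1 and Pax3 at 0 (undifferentiated), 5, 24 and 48 h in the mesoderm series (top) and the endoderm series (bottom). Points are libraries, 2 per group, and lines join their means. Pax8 is lower at 48 h than undifferentiated in all 3 genotypes of the mesoderm series, and its WT libraries at 48 h of the endoderm series lie apart at 1.65 and 0.47.

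Genes known to work with or beside the Pax family were followed as lists. In undifferentiated Mtf2 null cells, where 14.7% of all genes were called, 2 of 5 tested genes of the sine oculis, Eya and Dach list were called, Six5 lower (-1.63, SE 0.27) and Eya3 higher (1.11, SE 0.09). Single genes rose in other lists, among them Tle3, a Groucho-type co-repressor (1.15, of 7 tested), the thyroid regulator Foxe1 (3.54, of 3), the pharyngeal gene Ripply3 (1.33, of 2) and the B cell adaptor Blnk (1.52, of 4). Tcf15 of the somite list was lower (-1.02, of 4), and 0 of 4 midbrain-hindbrain genes were called. Pax6, the 1 tested gene of the remaining Pax genes, was not called (-1.16). Over tested genes, median log2 fold changes were -0.48 for the sine oculis, Eya and Dach list, -0.03 for co-repressors, -0.30 for somite, 0.62 for kidney, 0.97 for thyroid, 0.95 for pharyngeal, 0.18 for neural crest and dorsal neural tube, -0.56 for midbrain-hindbrain and 0.86 for B lineage genes, beside -0.04 for all genes. In the label Jarid2 null, with 1.15% of all genes called, 2 genes of these lists were called, both lower, Foxd3 of the neural crest (-1.52, of 3) and Gbx2, which helps place the midbrain-hindbrain boundary (-1.59, of 4). The medians of the 9 lists ran from -0.80 to 0.10, beside -0.01 for all genes. In WT cells from undifferentiated to 48 h of mesoderm, with 8.64% of all genes called, the neural plate border genes Tfap2a (6.34), Msx2 (5.01) and Msx1 (3.01) rose, with Gata3 (5.21) and Itga8 (3.38) of the kidney list, Lfng (1.91), Six4 (1.17) and Otx2 (4.51). Tcf15 (-2.05), Ripply3 (-2.13), Gbx2 (-5.22), Fgf17 (-2.09) and the co-repressor Aes (-1.22) fell there, and list medians ran from -1.66 to 0.75. In the endoderm series, with 8.15% called, Six4 (1.40), the iodide carrier gene Slc5a5 (1.65) and Otx2 (5.42) rose, while Wnt11 (-3.04), Gbx2 (-2.85), Fgf17 (-1.55), Ripply3 (-1.45), Tcf15 (-1.68) and Aes (-2.08) fell, and list medians ran from -1.28 to 0.95.

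The genes whose group means over 24 directed groups were most like each Pax gene, by Pearson's r among 18017 genes, are given as a description, since each Pax gene rests on a few counts. For Pax8 they were Rln3 (r = 0.914), Nlrp6 (0.9) and Coro2b (0.884). For Pax5 they were Igsf3 (0.834), Slc26a6 (0.803) and Kdelr3 (0.788). For Pax1 they were Scaf4 (0.818), Gclm (0.814) and Brap (0.764). For Pax3 the highest were lower, with Gm34680 at 0.616, Gm12248 at 0.613 and Gm12203 at 0.606.

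In bulk EBs the values are reads divided by a size factor, called normalised reads here, and are not on the CPM scale of the directed series. They rest on 3005707 to 22944105 reads per sequenced column. The 24 samples had 46 such columns, most of them in pairs numbered as replicates. The columns of a sample were joined, so the spread between them was not used in the tests. The day 0 samples labelled Mtf2 null and Jarid2 null differed from each other in the opposite way to later days. Of 171 genes that parted these 2 labels by more than 2 on the log2 scale at each of days 2, 4 and 7, 147 differed as much at day 0, and all 147 in the opposite direction. Mtf2 normalised reads at day 0 were 1628 in the sample labelled Mtf2 null and 667 in the sample labelled Jarid2 null. Against their own WT lines, 101 of 107 such genes for the label Mtf2 null and 130 of 133 for the label Jarid2 null kept their direction at day 0. The tests below are given with all days and without day 0, where Pax5 did not pass the filter, and the mutants are called by their labels. Eed, at 313 to 1078 normalised reads in the label Eed null and 277 to 1297 in J1, did not separate that label from its WT line. On days 2, 4 and 7 Mtf2 was at 1155, 1220 and 885 in the label Mtf2 null. Its WT line was at 2229, 1666 and 1986, so Mtf2 was lower in the label but not lost. Jarid2 on these days was at 3389, 1288 and 1153 in the label Jarid2 null. Its WT line was at 3220, 1431 and 1683, so Jarid2 did not separate that label.

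Pax3 showed the clearest separation. In the label Eed null it was at 9.2, 3.07, 27.1 and 25.7 normalised reads on days 0, 2, 4 and 7, and in J1 at 1.86, 0, 0.46 and 3.7. It was higher in the label on 4 of 4 days, by 2.15 on the log2 scale (SE 0.49), with an adjusted p of 0.00871 by limma with the day as a block, a fit in which the 4 days stand in for replicates. Without day 0 the difference was 2.38 (adjusted p = 0.0132), with 9.54% of genes called. It was the 1 of 5 tested Pax genes called in this comparison, in which 11.5% of 15850 genes were called. The call was lost without day 4 (1.69, adjusted p = 0.121) and with no day term (2.15, adjusted p = 0.176), and Pax3 did not pass the filter without day 7. In the label Mtf2 null Pax3 was at 0.87, 2.27, 11.1 and 24 normalised reads, with 0.37, 0.71, 0.83 and 3.65 in Pcl1-3 WT, again higher on 4 of 4 days. The difference was 1.31 (SE 0.49, adjusted p = 0.0678, not called) over all days and 1.66 (adjusted p = 0.0346) without day 0. With edgeR on the recovered reads it was 2.67 (adjusted p = 0.0449) over all days, without 1 of the day 0 columns of the label. In this comparison 18.7% of genes were called over all days and 21.8% without day 0. In the label Jarid2 null Pax3 was at 4.55, 0.69, 2.92 and 6.83, against 0, 0.43, 0.71 and 20.7 in JM8, with no constant direction (0.33, SE 0.49, adjusted p = 0.697), where 15% of genes were called. Without day 0 it turned to -0.12 (adjusted p = 0.899), with 18.7% of genes called.

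Pax2 was also higher on 4 of 4 days in the labels Mtf2 null and Eed null, without a call over all days. The share of all genes higher on 4 of 4 days was not counted. On the WT side there were only 1, 1, 1 and 5 reads in Pcl1-3 WT and 1, 2, 2 and 2 in J1. In the label Mtf2 null Pax2 was at 1.73, 2.3, 5.97 and 11.4 normalised reads on days 0, 2, 4 and 7, against 0.37, 0.71, 0.83 and 2.69 in Pcl1-3 WT. Its difference was 1.06 (SE 0.42, adjusted p = 0.0807), and 1.20 (adjusted p = 0.0447) without day 0. In the label Eed null Pax2 was at 6.9, 1.55, 5.93 and 9.12, and in J1 at 0.93, 0.83, 0.92 and 1.08. That difference was 1.28 (SE 0.42, adjusted p = 0.0527), and 1.19 (adjusted p = 0.076) without day 0. In the label Jarid2 null Pax2 was at 3.13 on day 0 and then at 0.34, 0.73 and 1.9, below JM8 at 0.43, 5.44 and 11.2 on days 2, 4 and 7. The difference was -0.48 (SE 0.42, adjusted p = 0.469), and -1.09 (adjusted p = 0.071) without day 0.

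The differences between labels were tested in the same limma fit. Without day 0, the Pax2 effect was higher in the label Mtf2 null than in the label Jarid2 null by 2.29 (SE 0.56, adjusted p = 0.0264), and higher in the label Eed null than in the label Jarid2 null by 2.28 (SE 0.56, adjusted p = 0.0173). The Pax3 effect was higher in the label Eed null than in the label Jarid2 null by 2.5 (SE 0.73, adjusted p = 0.0373). Over all genes 6.94% and 13.8% were called in the differences of the Mtf2 null and Eed null labels from the Jarid2 null label. With day 0 included, when 1.52% and 5% of genes were called, none of the 5 tested Pax genes was called in these 2 differences, with adjusted p-values from 0.0851 to 0.975. Between the labels Eed null and Mtf2 null no Pax gene was called with or without day 0 (adjusted p of 0.569 or more), where 3.27% of genes were called with day 0 and 2.23% without it. Each label was compared with its own WT line, so label and parental line cannot be told apart.

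Pax9, which acts in the pharynx and the ventral somite, was at 0, 2.65, 13.9 and 16.7 normalised reads in the label Mtf2 null and at 0.67, 1.89, 2.54 and 2.06 in Pcl1-3 WT. The difference was 0.94 (SE 0.59, adjusted p = 0.285), and 1.40 (adjusted p = 0.0922) without day 0. In the label Eed null Pax9 was at 11.5, 3.27, 12 and 18.2, and in J1 at 1.86, 3.37, 0 and 13.4 (1.21, SE 0.59, adjusted p = 0.188, and 1.04, adjusted p = 0.271, without day 0). In the label Jarid2 null it was at 5.98, 0, 0.73 and 1.9, and in JM8 at 0.4, 0, 2.49 and 9 (-0.13, adjusted p = 0.911, and -0.75, adjusted p = 0.391, without day 0). Its partner Pax1 did not pass the filter. It was highest in the day 0 sample of the label Eed null, at 8.05 normalised reads with 0 in J1, and J1 then exceeded the label at day 7 with 6.98 against 3.5. Pax7 did not pass either and stayed at or below 7.24 normalised reads in all 24 samples. It was at 1.15, 3.68, 2.13 and 2.26 in the label Eed null and at 0, 0.83, 0.46 and 1.59 in J1.

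Pax8 had another course, with its high values early. It went from 25.1 at day 0 to 2.11 at day 7 in J1, from 10.7 to 3.32 in JM8 and from 13.3 to 4.13 in Pcl1-3 WT. In the mutants it went from 43.7 to 5.03 in the label Eed null, from 15.1 to 2.09 in the label Jarid2 null and from 15.3 to 5.38 in the label Mtf2 null. All 6 lines were thus lower at day 7 than at day 0, without a test of time. No Pax8 difference between a label and its WT line was called, with log2 differences of 0.31, 0.49 and 0.27 (SE 0.44 each) and adjusted p-values of 0.65, 0.483 and 0.728 for Mtf2 null, Jarid2 null and then Eed null labels. Without day 0 these were 0.36, 0.54 and 0.14 (adjusted p of 0.641, 0.498 and 0.895). The lower Pax8 of undifferentiated Mtf2 null cells in the directed series did not appear at day 0 here, where the sample labelled Mtf2 null was at 15.3 and its WT at 13.3, and the sample labelled Jarid2 null at 15.1 and its WT at 10.7. Pax5 differences were between -0.29 and -0.06 with adjusted p-values from 0.751 to 0.95. On day 7, per kb of exon, Pax3 (2.28) and Pax9 (2.02 normalised reads per kb, mean of 6 lines) were the highest of the 7 and Pax5 (0.257) the lowest.

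**Figure D3:**
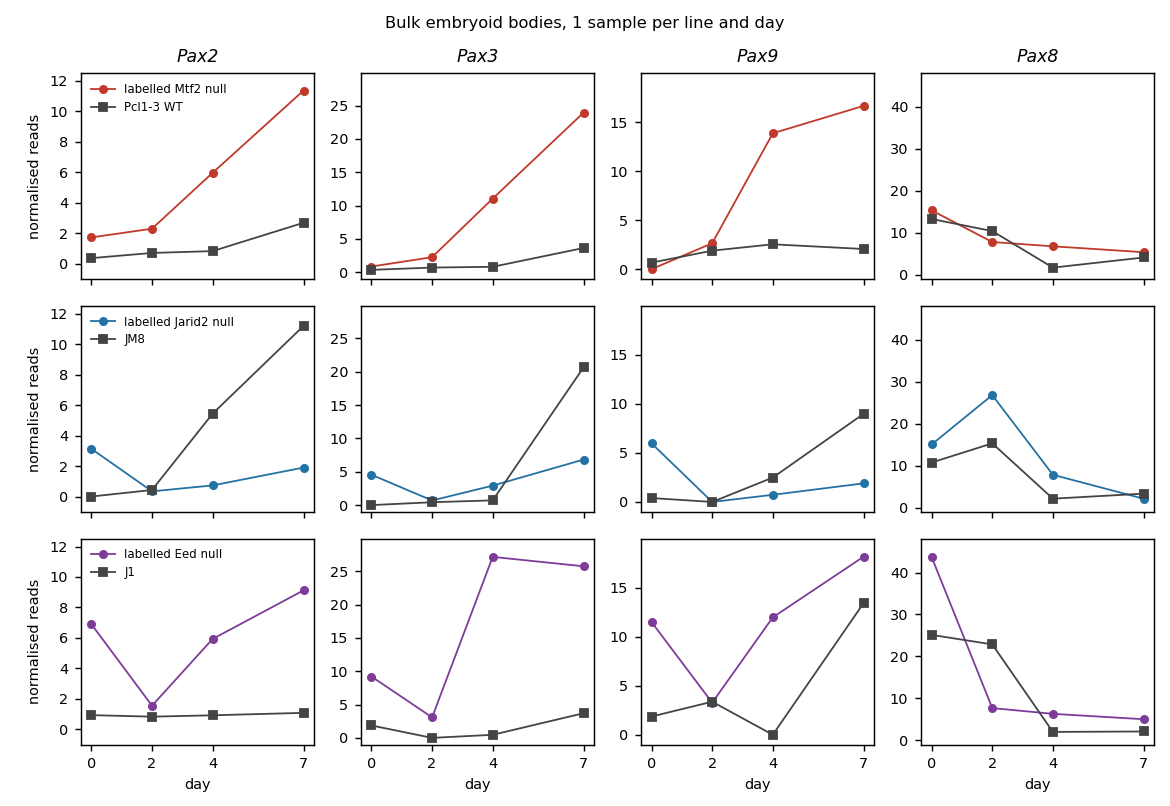
Normalised reads of Pax2, Pax3, Pax9 and Pax8 by day in bulk EBs, 1 sample per line and day, each mutant label (circles) with its WT line (squares). Pax3 of the label Eed null is at 27.1 and 25.7 on days 4 and 7, and Pax8 is lower on day 7 than on day 0 in all 6 lines.

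Marker lists also differed between labels and WT lines. Over all days, the germ cell list alone did not overlap between the label Eed null and J1. The 5 germ cell markers summed to 900 to 1370 normalised reads in the label and 112 to 621 in J1, with none at 0. The 4 blood markers were at 9.61 to 85.1 in the label, with Hbb-y at 0, and 15.5 to 19900 in J1. At day 7 the 6 pluripotency markers summed to 3588 in the label and 626.7 in J1. On matched days, trophoblast markers (372 to 804 against 208 to 516) and extraembryonic endoderm markers (137 to 5550 against 120 to 5070) were also higher in the label Eed null on 4 of 4 days. In the label Mtf2 null, lateral mesoderm markers (105 to 1310 against 19.9 to 207) and definitive endoderm markers (12.3 to 137 against 10.6 to 74.4) were higher than in Pcl1-3 WT on 4 of 4 days. The label Jarid2 null was likewise above JM8 on 4 of 4 days for both lists. Lateral mesoderm markers were at 133 to 2860 against 16.2 to 1140, and definitive endoderm markers at 26 to 434 against 12.8 to 159. In the label Jarid2 null, extraembryonic endoderm markers were at 156 to 18400 and in JM8 at 33.8 to 451. The 6 extraembryonic endoderm markers summed to 271 to 13600 in the label Mtf2 null and 34.3 to 137 in Pcl1-3 WT, with none at 0. The part of these markers in the Pax differences was not tested.

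The single-cell table counted few Pax molecules, read as unique molecular identifiers (UMIs), in 4949 cells whose library medians ran from 4997 to 10603 UMIs. Pax3 gave 172 UMIs in 102 cells, Pax8 90 in 66, Pax5 52 in 30, Pax9 51 in 37, Pax2 39 in 29 and Pax7 27 in 22. Pax1, not in that table, gave 3 UMIs in the per-well tables. With 1 library per genotype and day there is no test, and the intervals below are exact 95% Poisson intervals for counting error only. Mtf2 was at 53.7 to 61.1 UMI CPM in Mtf2 null and 365 to 794 in WT libraries, Jarid2 at 115 to 185 in Jarid2 null and 215 to 595 in WT, and Eed at 1.33 to 11.5 in Eed null and 115 to 478 in WT, so these labels matched their targets.

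Pax3 was highest late, and in mutant libraries. In Jarid2 null cells at day 10 it was at 24.8 UMI CPM (43 UMIs, interval 17.9 to 33.4), with a UMI in 22 of 264 cells, or 8.33% (exact binomial interval 5.3 to 12.3%). In Mtf2 null cells at day 10 it was at 13.0 (8.62 to 18.7), in Eed null cells at 8.21 (4.1 to 14.7), and in WT cells at 0.715 (1 UMI, 0.0181 to 3.99). By UMI CPM the WT interval at day 10 lay below all 3 mutant intervals, with 214 WT cells behind it. By share of cells, which counts a cell once, WT (0.467%, 0.0118 to 2.58%) lay below Jarid2 null and Mtf2 null (4.98%, 2.88 to 7.97%) and overlapped Eed null (3.47%, 1.4 to 7.01%). At day 7 WT was at 5.18 (2.59 to 9.27), beside Mtf2 null at 4.99, Eed null at 10.6 and Jarid2 null at 11.5 (7.23 to 17.5), and the WT interval overlapped all of these. In undifferentiated WT cells Pax3 had 0 of 340 cells with a UMI, which allows a share of up to 0.882%, taken as 3 counts of the total (exact binomial upper limit 1.08%). After thinning each cell to 2500 UMIs, the share at day 10 was 3.59% in Jarid2 null, 2.1% in Mtf2 null, 1.7% in Eed null and 0% in WT cells, and the exact intervals of all 3 mutants (lower limits 1.56, 0.774 and 0.353%) overlapped that of WT (upper limit 1.91%).

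Pax8 was highest in Eed null libraries of days 0, 4 and 7. It was at 7.66 UMI CPM (5 to 11.2) at day 0, 7.97 (4.73 to 12.6) at day 4 and 6.37 (3.56 to 10.5) at day 7, and then at 0.746 (1 UMI, 0.0189 to 4.16) at day 10. WT was at 4.35 (2.32 to 7.44) at day 0 and 3.27 (1.31 to 6.73) at day 4, then at 1 UMI on day 7 and 0 on day 10. In undifferentiated cells, Pax8 UMIs were found in 11 of 340 WT cells, 3 of 337 Jarid2 null cells and 0 of 347 Mtf2 null cells, the last allowing a share of up to 0.865% as 3 counts of the total (exact binomial upper limit 1.06%). These 0 UMIs in Mtf2 null cells set an upper Poisson limit of 0.948 UMI CPM, under the lower WT limit of 2.32. Mtf2 null cells were the deepest of the day 0 libraries, with a median of 10603 UMIs against 8447 in WT. After thinning, 3 of 325 WT cells kept a Pax8 UMI, and the exact interval of that share (0.191 to 2.67%) overlapped that of Mtf2 null cells (0 to 1.085%).

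Pax9 UMIs came from mutant cells. WT had 0 Pax9 UMIs on all 4 days. Eed null cells were at 6.2 UMI CPM (3.39 to 10.4) on day 4, 5.94 (3.25 to 9.97) on day 7 and 4.48 (1.64 to 9.75) on day 10. Mtf2 null cells were at 4.63 (2.22 to 8.52) on day 10. The intervals of Eed null cells on days 4 and 7 lay above the WT upper limits of 1.72 and 1.74. After thinning, the Eed null shares of cells were 1.44% (0.395 to 3.66%) and 1.68% (0.549 to 3.88%) on these days. Those exact intervals overlapped WT, with upper limits of 1.28 and 1.29%. Pax5 was highest in Mtf2 null cells at day 10, with 19 UMIs in 8 cells (8.8 UMI CPM, 5.3 to 13.7), and elsewhere at or below 2.35. Pax2 was highest in the 3 mutants at day 10, at 5.56 in Mtf2 null, 4.61 in Jarid2 null and 3.73 in Eed null cells, with 0.715 (1 UMI) in WT, and these intervals overlapped. Pax7 stayed at or below 2.12 UMI CPM, with all its intervals overlapping. Against background, the share of undifferentiated WT cells with a UMI was 0 of 340 for Pax2, Pax7 and Pax9 and 0.882% for Pax5.

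**Figure D4:**
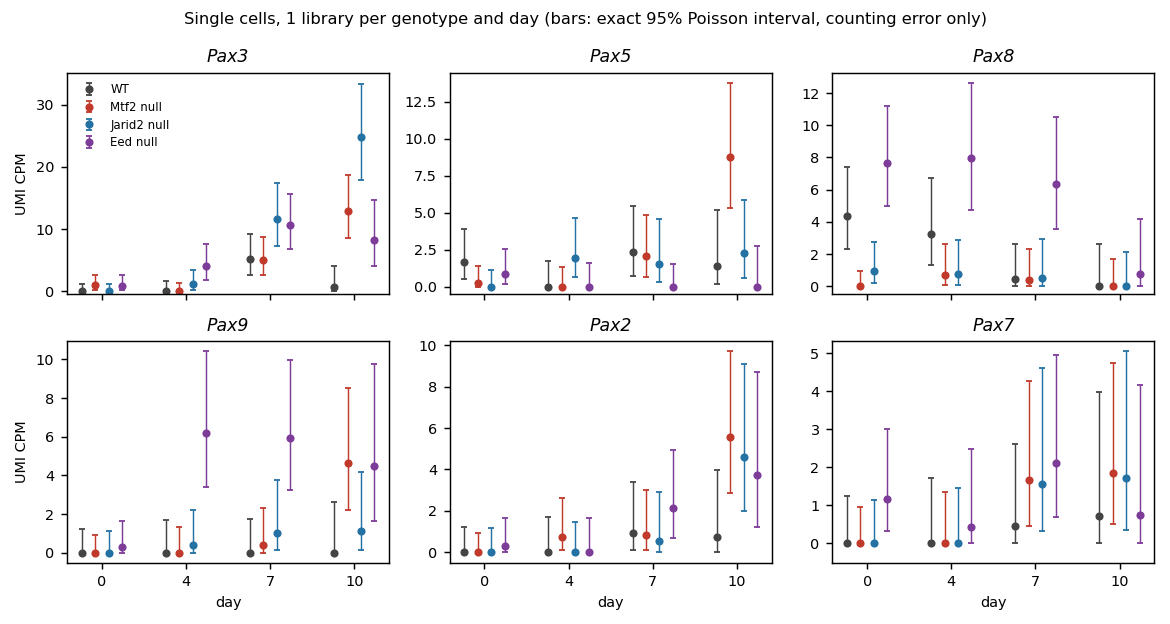
UMI CPM of 6 Pax genes by day in the 16 single-cell libraries, 1 per genotype and day, with exact 95% Poisson intervals that cover counting error only. Pax3 in Jarid2 null cells at day 10 (24.8) is the highest value, and WT holds no Pax9 UMI on any day.

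Among the 22 deposited clusters (resolution 2.5), cluster 15 held the most Pax RNA. The clusters were built from these cells' genes, so their levels are a description. Cluster 15 had 136 cells, 71 Mtf2 null, 46 Jarid2 null, 18 WT and 1 Eed null, all from days 7 and 10, with a median of 5860 UMIs. The 6 Pax genes summed to 153 UMI CPM there, against 31.2 in cluster 16 and 24.2 in cluster 11. Pax3 was at 85.2 (66.9 to 107), which was 43% of all its UMIs, in 26.5% of the cells (19.3 to 34.7%). Pax5 was at 35.7 (24.2 to 50.7), 59.6% of its UMIs, and Pax2 at 13.8 (7.14 to 24.1), Pax9 at 12.7 (6.32 to 22.7) and Pax7 at 5.76 (1.87 to 13.4). Pax8 had 0 UMIs in cluster 15. After thinning, 10.1% of its cells kept a Pax3 UMI, and Pax9 went to 3.36 UMI CPM, with a UMI in 1 of 119 cells. Embryonic globin transcripts, which mark blood cells, were also found there, Hbb-bh1 in 25% of cells. The same cluster ranked first for the 12 sine oculis, Eya and Dach genes (591 UMI CPM summed), for the 7 midbrain-hindbrain genes (588) and for Pax6 (112). Of that 588, En1 at 23.0 and Gbx2 at 33.4 were a small part, and the list also holds Otx2, En2, Fgf8, Fgf17 and Lmx1b. Cluster 15 had rank 3 for the neural crest and dorsal neural tube genes, at 801, rank 14 for the somite genes and rank 8 for the kidney genes. Its rank was 19 for the thyroid genes, 11 for the pharyngeal genes and 13 for the B lineage genes.

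Within cluster 15, Pax3 UMIs were found in 7 of 16 WT cells at day 7, 4 of 11 Mtf2 null cells at day 7, 11 of 32 Jarid2 null cells at day 10 and 10 of 60 Mtf2 null cells at day 10. WT had 2 cells in the cluster at day 10. Of the 43 Pax3 UMIs of Jarid2 null cells at day 10, 28 were in cluster 15. All 19 Pax5 UMIs of Mtf2 null cells at day 10 were in it, and 9 of the 10 Pax9 UMIs. Cluster 15 held 60 Mtf2 null, 32 Jarid2 null, 2 WT and 0 Eed null cells at day 10. Its part in the differences between libraries was not tested.

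Outside cluster 15 the genes parted. Pax3 was next highest in cluster 16 at 18.7 (11.6 to 28.6) and cluster 11 at 17.2 (10.7 to 26). Pax8 was highest in cluster 10 at 10.6 (6.71 to 15.9), cluster 6 at 6.6 (4.03 to 10.2), cluster 9 at 6.24 (2.85 to 11.8) and cluster 3 at 4.76 (2.6 to 7.99), and cluster 3 was mostly undifferentiated WT cells, 307 of 335. Clusters 6 and 3 ranked first and second for the 6 pluripotency genes, and clusters 10 and 9 for the 5 germ cell genes. Cluster 6 was made of Eed null cells, 280 of 303 at day 0. Pax9 was at 6.93 (3.32 to 12.7) in cluster 9 and 4.6 (2.21 to 8.46) in cluster 10. It was at similar levels in cluster 21 (4.79), cluster 13 (4.62) and cluster 16 (4.46). Clusters 13 and 16 also held Pax8, at 2.64 and 3.57, so clusters 9 and 10 were not alone in holding UMIs of both genes. No cell had both Pax8 and Pax9.

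In single cells, 4684 of 4949 had no Pax UMI, 246 had 1 Pax gene, 17 had 2 and 2 had 3. Pax3 and Pax5 were the most frequent pair, in 7 cells, all in cluster 15. Pax8 shared a cell with Pax5 once and with Pax7 once. At this depth a gene with no UMI in a cell cannot be called absent.

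**Figure D5:**
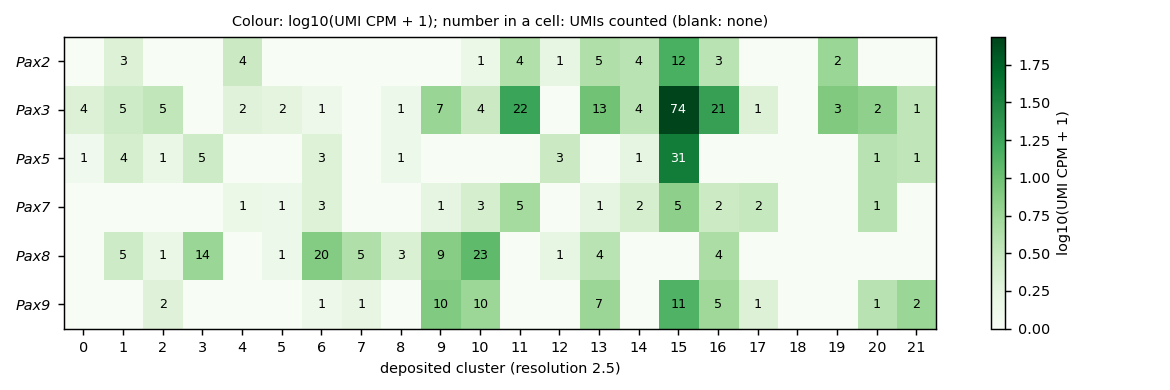
UMI CPM of 6 Pax genes in the 22 clusters, coloured as log10(UMI CPM + 1), with the number of UMIs printed in each cell. Cluster 15 holds 74 Pax3 and 31 Pax5 UMIs and no Pax8 UMI, whereas Pax8 is highest in cluster 10 with 23.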

How the data were processed

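The mesoderm and endoderm tables, per the labels and the study's methods, hold estimated counts per gene that the authors made with Bowtie2 and Salmon on GRCm38/mm10. They were rounded here and tested with edgeR 4.0.16 (quasi-likelihood, TMM scaling, filterByExpr with a minimum count of 10 and total of 15), fitted over all 24 libraries of a series, or over all 12 undifferentiated libraries with a term for the series. Calls needed an adjusted p (Benjamini-Hochberg) below 0.001 together with a change of more than 1 on the log2 scale. The deposited EB values are a signal, reads divided by the authors' size factors. Whole reads were recovered in 45 of 46 sequenced columns (100% of values within 0.02 of a whole number), normalised values were averaged over the columns of a sample, and limma 3.58.1 was fitted to their log2 CPM (prior count 2, at least 1 CPM in 4 samples, TMM, day as a block, adjusted p under 0.05). The edgeR count test on the recovered reads summed the reads of a sample, left out the 1 column without recovered reads (label Mtf2 null, day 0), covered 15837 genes and was chosen after seeing the data. The deposited single-cell table holds UMI counts of cells and cluster numbers that the authors made with Bowtie2, HTSeq and Seurat. Clusters and cells were used as deposited, doublets were not called, and 384 well barcodes recur in every library because they name wells. The stated filter of 500 genes left 5343 wells in the per-well tables, and the cell table held 4949. Promoters and loci came from RefSeq and GENCODE vM21.

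Named were all 7 Pax genes, up to 3 called genes per companion list, and 3 most similar genes per Pax gene by the Pearson correlation of group means. Some called genes of the companion lists are not reported here. The members and lists were chosen with earlier results of these data known. No column of per-sample values lacked a sample (0). Replicate pairs differed beyond sampling noise in all 24 pairs (chi-square per gene 2.37 or more). Same-numbered libraries did not deviate together in a constant way. Correlations between groups ran from -0.4 to 0.41 in the mesoderm and -0.433 to 0.496 in the endoderm series, with medians of -0.001 and 0.031. Of 66 pairs of groups in each series, 25 and 26 were above 0.1. Replicate numbers were not used as a block in the main fit, and the counts with that block are given below. Alternatives tried were DESeq2 1.42.0, RLE scaling, no filter on low values, other prior counts, left-out libraries and days, and thinning. The scripts were tested on simulated data. Few counts set the precision of every Pax value.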

Additional observations from a re-analysis of the deposited data

Results flagged for a closer look

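A set of 3 differences between labels in bulk EBs passed the limma test on days 2, 4 and 7. The Pax2 effect was higher by 2.29 in the label Mtf2 null and by 2.28 in the label Eed null than in the label Jarid2 null, and the Pax3 effect was higher by 2.5 in the label Eed null than in the label Jarid2 null. They were found without the day 0 samples, whose labels are in doubt, and were not called with them. On the days used, Jarid2 RNA did not separate the label Jarid2 null from its WT line.

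In undifferentiated Mtf2 null cells Pax1 was at 0.207 CPM in 1 library (2 counts) and at 0 in the other 3, which sets that library apart by its gap. With 3 of 4 values at 0 any other value is set apart in this way, so the gap carries no weight, and WT ranged from 0 to 0.27 CPM. Of 21 groups of 4 libraries looked at in this way, 1 stood out, and chance gives about 1 in 20.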

How the results depend on the processing

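The main results kept in 99 of 108 comparisons with another setting and in 117 of 120 with a library left out, and no called value reversed. Counts of Pax genes called were taken as kept within 1.5 times of their main value. Most main counts were 0, and these were kept only by staying at 0. The comparisons with another setting also held the highest single-cell UMI CPM of each Pax gene, taken as kept inside its Poisson interval. Uncalled values that turned sign were Pax3 in WT mesoderm (-1.111 to 0.105 with a library left out, the latter without 48 h replicate 2), Pax1 in WT endoderm (-0.105, without 48 h replicate 2, to 2.317), Pax5 for the EB label Mtf2 null (0.063 with prior count 0.5 and 0.251 without day 2), and for the label Jarid2 null Pax3 (-0.119 without day 0), Pax5 (0.084 without day 4 and 0.032 without day 7) and Pax9 (0.068 without day 4, 0.34 without day 7 and 0.304 with edgeR on reads). For undifferentiated Mtf2 null against WT the count went from 0 to 2 (Pax2 and Pax8) with no filter. For WT from undifferentiated to 48 h of mesoderm it went from 1 to 0 with only the compared libraries, and lay between 0 and 1 with a library left out. DESeq2 gave Pax8 no adjusted p there (log2 fold change -3.35, SE 0.93), and gave no adjusted p to any Pax gene in 7 comparisons, which then have no value. For the label Mtf2 null in EBs the count went from 0 to 2 (Pax2 and Pax3) without day 0, and to 1 (Pax3, 2.67, adjusted p = 0.0449) with edgeR on the recovered reads. For the label Eed null it went from 1 to 0 without day 4, without day 7 or with no block for the day, and to 2 with the deposited scaling (Pax2, 1.31, adjusted p = 0.0488). Pax3 UMI CPM in Jarid2 null cells at day 10 went from 24.8 to 16.1 after thinning. With the replicate number as a block the counts were unchanged, 1 in WT mesoderm and 0 in the other 11 directed comparisons, and the Pax8 difference in undifferentiated Mtf2 null cells was -1.33 (adjusted p = 0.00474). With 29 counts at most in a library, small changes of Pax genes were not detectable in the directed series.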
